A study of Camelina sativa with 41 samples.

Results

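The peak list of the transcription factor Csa06g004330 held 92476 of the 717159 binding peaks in the 20 peak lists analysed, and was chosen by the gene ID in the factor's label. The series examined camelina (Camelina sativa, a hexaploid oilseed of the mustard family), cultivar Suneson, through DNA affinity purification sequencing (DAP-seq) for 22 factors and through RNA sequencing of seeds aged 5, 8 and 11 DPA (days post-anthesis, counted from flower opening) with 3 biological replicates per age. Csa17g034220 and Csa19g036630, the remaining factors, were not analysed here. The series title concerns how lipid metabolism is regulated.

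In DAP-seq a factor made outside the plant and fused to a Halo tag is added to sheared genomic DNA, and the bound fragments are recovered and sequenced. The assay reads which DNA a factor can hold on its own, without the chromatin, partner proteins or tissue of the living plant. A transcription factor recognises short sequence motifs, and closely spaced copies of a motif can hold several molecules of it. Here the DNA came from a pool of 10 leaves of 6 plants that were 2 months old, was sheared to 200 to 400 bp, and went through 11 additional PCR cycles that remove methylation. About 200 ng of it was used per factor, and fragments of 300 to 400 bp were selected at the end. All 20 lists share this DNA, cultivar and amplified state, so they hold no comparison with methylated DNA or with seed chromatin. The series text gives duplicates for DAP-seq, while each factor had 1 list, so differences between factors carry no replicate error and no test. The confidence intervals of shares (95%, Clopper-Pearson) cover counting error only. The files pair the IDs with no gene name, and none of the factor IDs was found among the 98741 genes of the RefSeq table (assembly Cs), so no family or role is given for Csa06g004330 or any other factor. No genome of the files' build was used, so no sequence under the peaks is printed and peaks were not assigned to genes. Coordinates are the authors' own; the sources used here do not name their build.

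The summits of Csa06g004330 lay evenly over the chromosomes, and most stood apart from each other: 69940 had no other summit of the list within 500 bp. Pairs 101 to 200 bp apart were 2.87 times as frequent as the density at 5 to 20 kb would give, and stronger peaks had a close neighbour more often than weaker ones. Most summits (71.2%) had no summit of any other factor within 100 bp. Among the long lists, sharing was highest over moved summits with Csa02g073390, Csa09g088620, Csa13g019570 and Csa13g011780, while Csa13g021450 and Csa08g011090 shared 0.496 and 0.509 times as many as moved summits did.

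Csa06g004330 had a longer list than all other factors but Csa02g073390, Csa04g012470 and Csa13g019570. Every peak was 201 bp wide, with the summit at its centre. The signal, which the authors give per peak with no stated unit, ran from 24 to 1088, a 45.3-fold range, with a median of 53.2 and quartiles of 34.9 and 96. The distribution was skewed towards weak peaks: 1521 peaks stood at the lowest value, and 123 reached 500 or more. The strongest decile of peaks (9247, with a signal of at least 163.4) held 30.9% of the summed signal. The −log10 q that the authors list ran from 2 to 198.89, with a median of 10.1, and followed the signal closely (Spearman's rho 0.97 over 92476 peaks, a description only). The authors' score was at its cap of 1000 for 61.0% of peaks and does not rank them. Signal scales differ between lists and were not compared across factors.

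The 5 strongest peaks had no summit of another factor within 100 bp, as was so for most summits of the list. The strongest had its summit at chr6:5288928, with a signal of 1088 and a −log10 q of 75.65. The second, at chr5:27410425, had a signal of 906.6 and a −log10 q of 162.82, and the third, at chr8:10365215, had 829.3 and 112.83. The next was at chr6:5285275, 3653 bp from the strongest, with a signal of 783.7 and another Csa06g004330 summit 171 bp away. The fifth, at chr4:1394567, had a signal of 765.7 and a −log10 q of 197.82, with another summit of the list 393 bp away. None of the 19 other lists had a summit within 100 bp of any of these 5. Over the whole list 71.2% of summits had none, while 35.6% of those in the strongest decile had one. The highest −log10 q, 198.89, belonged to a peak at chr16:17465375 with a signal of 699.9, which Csa13g019570 shared. At the other end, the 3 weakest peaks by signal and then −log10 q, at chr7:10309761, chr4:4333381 and chr6:16538321, each had a signal of 24 and a −log10 q of 2.03, 2.07 and 2.07, and Csa13g011780 shared the one on chromosome 4.

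**Figure D1:**
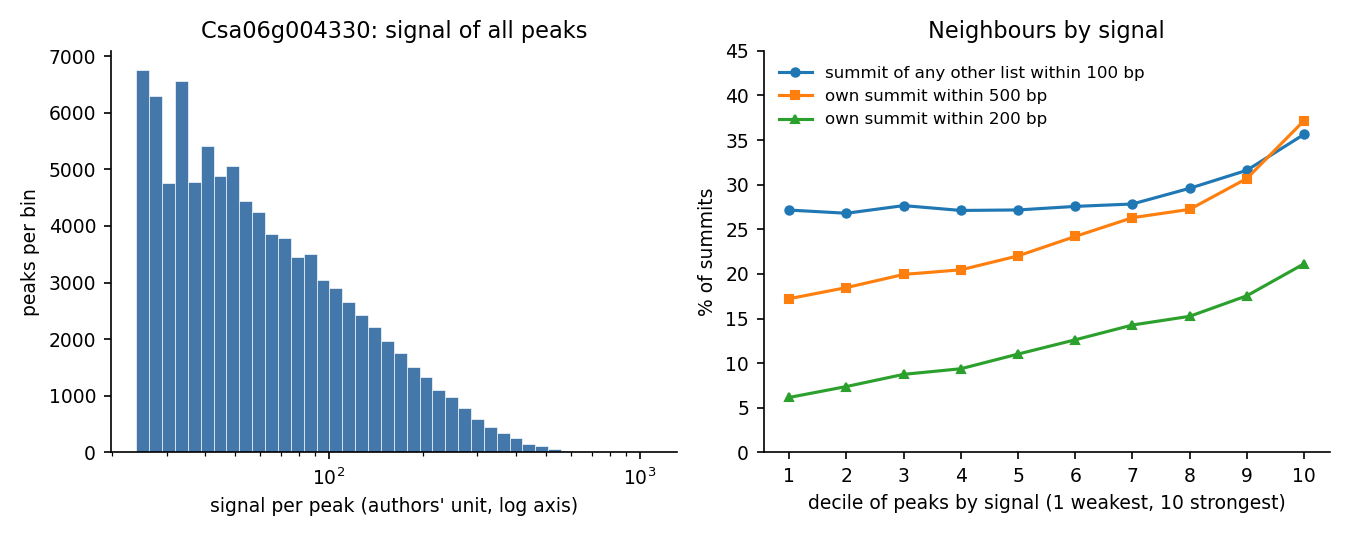
Left, number of Csa06g004330 peaks (vertical axis) by the authors' signal (horizontal log axis), for all 92476 peaks. Right, percent of summits with a neighbour (vertical axis) by decile of signal, 1 being the weakest; own summits within 500 bp are at 37.2% in the strongest decile and 17.2% in the weakest, and summits of any other list within 100 bp at 35.6% and 27.2%.

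Neighbouring Csa06g004330 summits were a median of 3837 bp apart, with quartiles of 1271 and 8922 bp and a smallest gap of 3 bp. Of the summits, 22536 (24.4%, interval 24.1 to 24.6) had another summit of the list within 500 bp. Moving the list by 5 to 20 kb, in steps of 1 kb and both directions (32 moves), put 14.0% of moved summits within 500 bp of an unmoved one on average. The 3 lists nearest in length had like shares: 22.2% for Csa13g019570 (moved 15.0%), 25.5% for Csa04g012470 (moved 17.6%) and 19.7% for Csa01g013850 (moved 12.3%). At shorter range Csa06g004330 stood higher than these 3, with 12.4% of summits having another within 200 bp, against 6.13% for Csa13g019570, 9.58% for Csa04g012470 and 5.16% for Csa01g013850.

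The distance at which pairs gathered differed between the lists. For Csa06g004330, pairs at 101 to 150 bp were 3.11 times as dense as pairs at 5 to 20 kb (2306 pairs), and those at 151 to 200 bp 2.62 times. The excess was 1.94-fold at 51 to 100 bp and 1.75-fold at 201 to 250 bp, and pairs under 51 bp were scarce, at 0.226-fold. Such pairs were scarcer still in Csa04g012470 (0.125-fold), Csa13g019570 (0.0553-fold) and Csa01g013850 (0.0130-fold). Csa13g019570 and Csa01g013850 had their highest density farther out, at 351 to 400 bp, with 1.88-fold and 2.06-fold. Csa04g012470 peaked at 101 to 150 bp as Csa06g004330 did, at 1.83-fold. Over 101 to 200 bp Csa06g004330 ranked behind 2 and ahead of 9 others of the 12 lists of 2000 or more peaks. Csa08g011090 (10.8-fold) and Csa13g021450 (6.34-fold) were above it, and the lowest, Csa02g073390, was at 0.452-fold. Csa04g023980 was almost level with Csa06g004330, at 2.83-fold (328 pairs) against 2.87-fold. With one list per factor these orders were not tested.

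**Figure D2:**
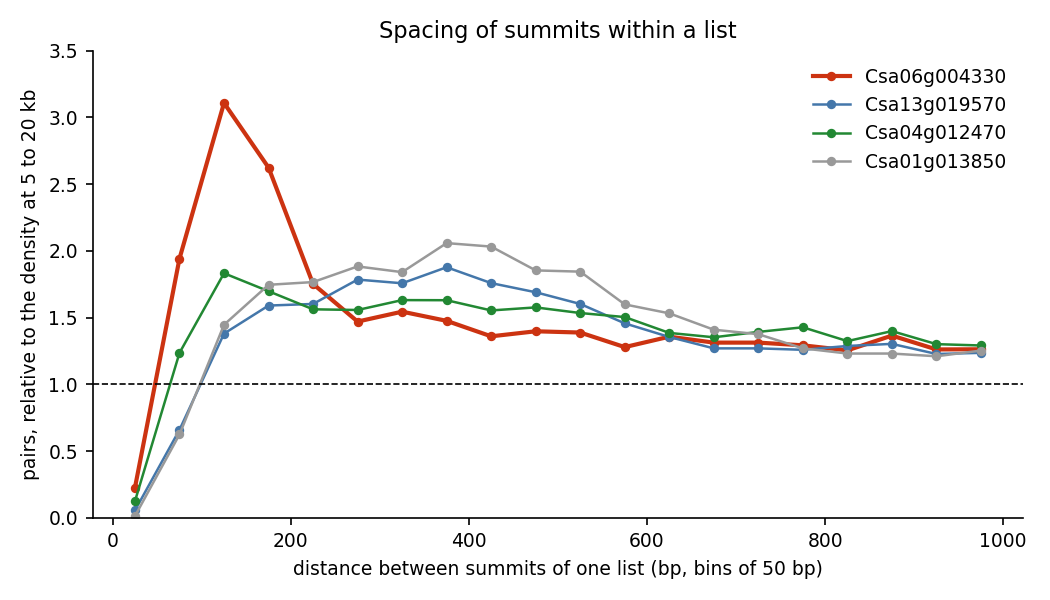
Density of summit pairs within one list (vertical axis, relative to the density at 5 to 20 kb; dashed line at 1) by the distance between them (horizontal axis, 50-bp bins), for Csa06g004330 and the 3 lists nearest in length. Csa06g004330 reaches 3.11 at 101 to 150 bp and lies under the other 3 lists between 250 and 600 bp.

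Close neighbours were more frequent among the stronger peaks. Summits with another within 200 bp (11422) had a median signal of 73.9, against 50 for the 69940 summits with none within 500 bp. The share with another summit within 200 bp was 21.1% in the strongest decile of peaks and 6.16% in the weakest, and each decile was above the weaker one next to it. Signals of neighbours within 200 bp were weakly related (Spearman's rho 0.22 over 5836 pairs, which share their library), against 0.01 over 33246 neighbours at 5 to 20 kb. The stronger of such a pair had a median of 1.87 times the signal of the weaker.

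Joining summits at most 500 bp apart gave 69940 single summits, 9643 pairs and 848 groups of 3. Longer runs were few: 113 of 4, 36 of 5, 10 of 6 and 2 of 7 summits. The run at chr8:14249577-14251065 had 7 summits with signals of 55.4 to 231.8 (median 139.5). The run at chr14:28525427-28526719 had 7 summits with signals of 33.9 to 194.2 (median 86.1). Another, at chr12:10986701-10987570, had 6 summits with signals of 25 to 296.5. The runs on chromosomes 14 and 12 held summits below the list's median signal of 53.2 beside stronger ones, while all 7 on chromosome 8 were above it.

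Certain exact distances recurred. At shorter range, where pairs were denser, 132 bp had 77 pairs and 159 bp had 70. Beyond 200 bp the commonest was 244 bp, with 64 pairs, against a median of 23 pairs per bp for distances within 25 bp of it. These 64 pairs lay on all 20 chromosomes with at most 7 on one, and their summits were strong, with medians of 137 for the left and 126 for the right one. Distances of 261 and 360 bp each had 44 pairs, on 16 and 17 chromosomes, and 337 and 339 bp each had 40. The distances were singled out after their counts were seen, and what lies under these pairs was not examined, since no genome was used.

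Across chromosomes the list was even. The 20 chromosomes had 142 to 162 summits per Mb up to the last summit of any list, 152 over all 20, a 1.14-fold range. Chromosomes 10 and 18 were the densest, at 161.9 and 161.3 per Mb, and chromosomes 19 and 16 the sparsest, at 141.88 and 141.91. Chromosome 11, the longest, had the most summits (7862, 8.50%), and counts followed chromosome span (Spearman's rho 0.98 over 20 chromosomes). Density also went with that of all other lists together (rho 0.66 over 20 chromosomes that share their DNA pool). The median signal was 51.75 to 55.8 on every chromosome, and 69.6% to 72.8% of summits had no other list within 100 bp. Along 10 equal parts of a chromosome, 9.42% to 10.4% of summits fell in each, with the lowest shares in parts 5 and 6. All other lists together ran from 9.64% to 10.4%, and were lowest in part 5 too.

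At 100 kb, the median window had 15 summits (quartiles 12 and 18) among 6096 windows. There were 11 windows with none, of which 3 held no summit of any list. The longest gap without a Csa06g004330 summit was 317581 bp, at chr14:29270596-29588177, and only 8 summits of other lists lay in it. A gap of 275182 bp at chr9:16085607-16360789 held 53 summits of other lists, and one of 215169 bp at chr7:18446054-18661223 held 7. Summit counts per window went with those of Csa02g073390 most (rho 0.29) and least with Csa13g021450 (0.02) and Csa08g011090 (0.03), over the same 6096 windows; shorter lists have fewer summits per window.

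One window stood apart. The window at chr6:7600000-7699999 held 81 summits with a median signal of 138.8, and the next densest, on chromosome 18, held 46. Of the 80 gaps between its neighbouring summits, 12 were 155 to 161 bp, 7 were 335 to 341 bp and 5 were 175 to 181 bp, the commonest ranges of 7 bp. Csa04g012470 had 32 summits in this window and Csa18g003140 had 17 of its 1089. Csa05g079950, Csa08g011090, Csa13g021450 and Csa19g005080 had none, and Csa04g023980 (25141 peaks) and Csa11g072230 (8083 peaks) had 1 each. Windows with 40 or more summits numbered 5 and held 254 summits, and without them pairs at 101 to 200 bp were still at 2.86-fold. This window and its gaps were chosen after their values were seen.

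Of the 92476 summits, 65834 (71.2%, interval 70.9 to 71.5) had no summit of the other 19 lists within 100 bp, and 83.1% had none after moving. Csa04g012470 had a like share without another list (77.1%, moved 84.0%), while Csa13g019570 (38.8%) and Csa01g013850 (30.5%) were far below their moved shares of 82.2% and 81.8%. Those last 2 lists overlap each other: 59.8% of Csa01g013850 summits and 48.2% of Csa13g019570 summits were shared between them. Among Csa06g004330 summits, 20332 were near 1 other list, 5143 near 2, 962 near 3 and 167 near 4. The 38 summits near 5 or more lists had a median signal of 94.4, against 52 for summits near none. The one with most was at chr18:7288988, with a signal of 102.5 and 8 other lists. The next, at chr8:14246484, had 7 other lists and a signal of 50.3, and lay 3093 bp from the run of 7 summits on chromosome 8. There were 7 summits with 6 other lists, and the strongest of them, at chr12:16361243, chr9:34242954 and chr19:25947421, had signals of 254.9, 185 and 168.8.

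A shared count was called more when it was above all 32 moves and fewer when below all 32, for lists of 50 or more peaks. Of 17 such lists, 14 shared more of the Csa06g004330 summits, 2 shared fewer and 1 did neither. Over all 306 ordered pairs of lists the share was above all moves in 89.5% and below all moves in 2.61%, so sharing more was the rule in this series, and sharing fewer was found in 8 pairs. Csa06g004330 with Csa13g021450 and with Csa08g011090 made up 4 of those 8, counting both directions, and Csa04g023980 with Csa11g072230 and with Csa13g021450 the others. Over the 11 other lists of 2000 or more peaks the median fold of Csa06g004330 was 1.57, against 1.79 over the 110 ordered pairs among those 11.

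**Figure D3:**
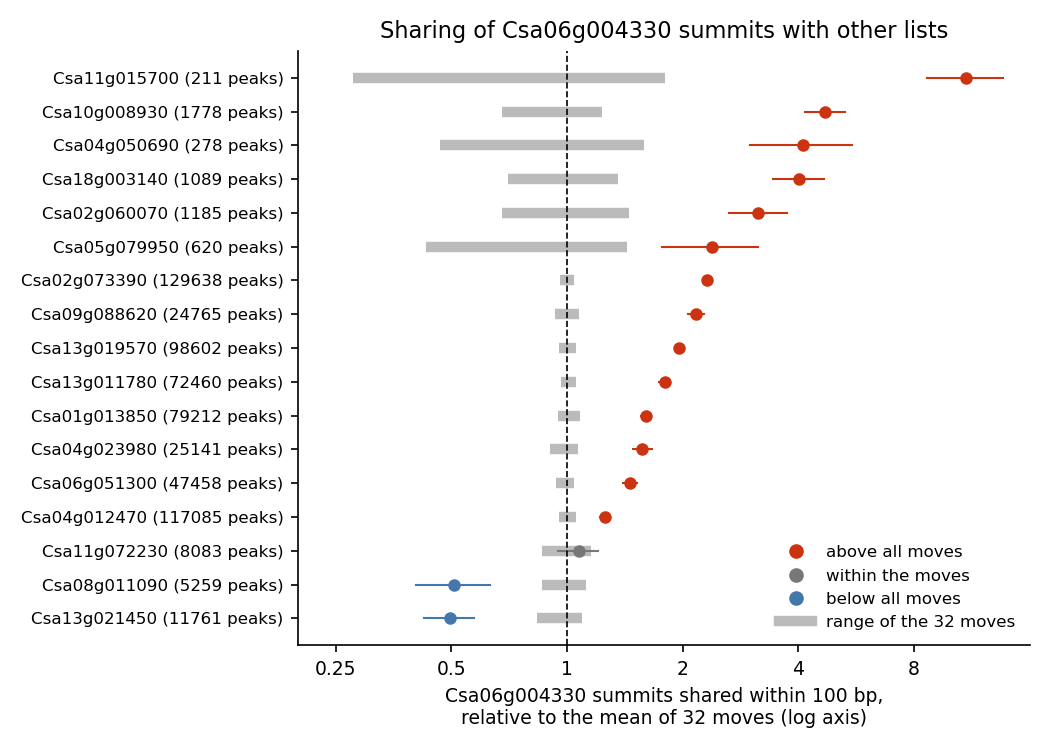
Number of Csa06g004330 summits with a summit of each other list within 100 bp, divided by the mean of the 32 moves (horizontal log axis); thin lines are 95% counting intervals and grey bars the range of the moves, for 17 lists with their lengths. Short lists are widest in range and highest in fold, up to 10.9, and Csa08g011090 (0.509) and Csa13g021450 (0.496) lie below all moves.

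Csa02g073390, the longest list, shared the most. It had a summit within 100 bp of 9429 Csa06g004330 summits (10.2%), against a mean of 4.41% after moving, a fold of 2.31. From its side 7.08% of its summits were shared, and Csa06g004330 was the partner with the largest share among the 11 long lists, though 3 others were above it by fold. The excess was largest at 0 to 25 bp, where summits of Csa02g073390 were 2.90 times as dense as at 5 to 20 kb, and was 1.22-fold at 301 to 500 bp. It was larger where both peaks were strong: 3.05-fold between peaks at or above the median signal of each list, against 1.89-fold between peaks below it.

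Csa09g088620 shared 1689 Csa06g004330 summits (1.83%, moved 0.841%), a fold of 2.17. Its excess was flatter, with 2.26-fold density at 0 to 25 bp and 2.17-fold at 51 to 100 bp. Csa13g019570 shared 6013 summits (6.50%, moved 3.32%), a fold of 1.96, and its density was 2.64-fold at 0 to 25 bp. Csa13g011780 shared 4032 summits (4.36%, moved 2.43%), a fold of 1.79. Each of these 4 lists shared more than the mean of the moves on all 20 chromosomes, as did Csa01g013850, Csa04g012470, Csa04g023980 and Csa06g051300. From the partner's side, Csa06g004330 ranked 10 of 11 long lists by fold for Csa09g088620 (2.15, against 11.5 for Csa04g023980). It ranked 5 for Csa13g019570 (1.94, against 17.8 for Csa01g013850). For Csa13g011780 it ranked 4 (1.78, against 4.01 for Csa09g088620).

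Csa13g019570 overlaps Csa01g013850 over much of its length, so the sharing was split by that second list. The 47563 summits of Csa13g019570 with Csa01g013850 within 100 bp had a fold of 1.73 with Csa06g004330, and the 51039 without it had 2.13. For Csa01g013850 the order was the other way, at 1.72-fold for the 47379 summits with Csa13g019570 and 1.43-fold for the 31833 without it. All 4 were above all moves.

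Among lists of 2000 or more peaks, the lowest folds were those of Csa04g012470, Csa11g072230, Csa08g011090 and Csa13g021450. Csa04g012470 shared 4569 summits (4.94%, moved 3.93%), a fold of 1.26, which was above all moves. Csa11g072230 shared 274 summits (0.296%, moved 0.276% with a range of 0.238% to 0.319%) and lay within the moves. It was above all moves at 200 bp (1.16-fold) and among peaks at or above the median signal (1.22-fold).

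Csa13g021450 shared 177 Csa06g004330 summits (0.191%, interval 0.164 to 0.222), against a mean of 0.386% after moving, a fold of 0.496. From its side 174 of 11761 summits (1.48%) were shared, against 2.99% after moving. The deficit was found on all 20 chromosomes. It was deepest close by: its summits were at 0.255 of the distant density within 25 bp, at 0.520 at 26 to 50 bp, at 0.598 at 51 to 100 bp and at 0.816 at 201 to 300 bp, and reached 1.07 at 301 to 500 bp. The summits that were shared lay a median of 61 bp apart. The fold was 0.374 between peaks at or above the median signal of each list and 0.719 between peaks below it. Shared Csa06g004330 peaks were weaker than the others, with a median signal of 44 against 53.2.

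Csa08g011090 shared 83 Csa06g004330 summits (0.0898%, interval 0.0715 to 0.111), against a mean of 0.176%, a fold of 0.509. From its side 82 of 5259 summits (1.56%) were shared, against 3.04% after moving, and 18 of 20 chromosomes were below the mean of the moves. Its density was 0.515 of the distant one at 0 to 25 bp, 0.784 at 201 to 300 bp and 1.10 at 301 to 500 bp. For both lists Csa06g004330 had the lowest fold of the 11 long lists.

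Csa13g021450 and Csa08g011090 share many of their own sites, so each was split by the other. The 3323 Csa13g021450 summits with Csa08g011090 within 100 bp had a fold of 0.428, and the 8438 without it had 0.521. The 3273 Csa08g011090 summits with Csa13g021450 had a fold of 0.414, and the 1986 without it had 0.672. All 4 were below all moves, so the deficit was present at sites of each list that the other did not share.

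**Figure D4:**
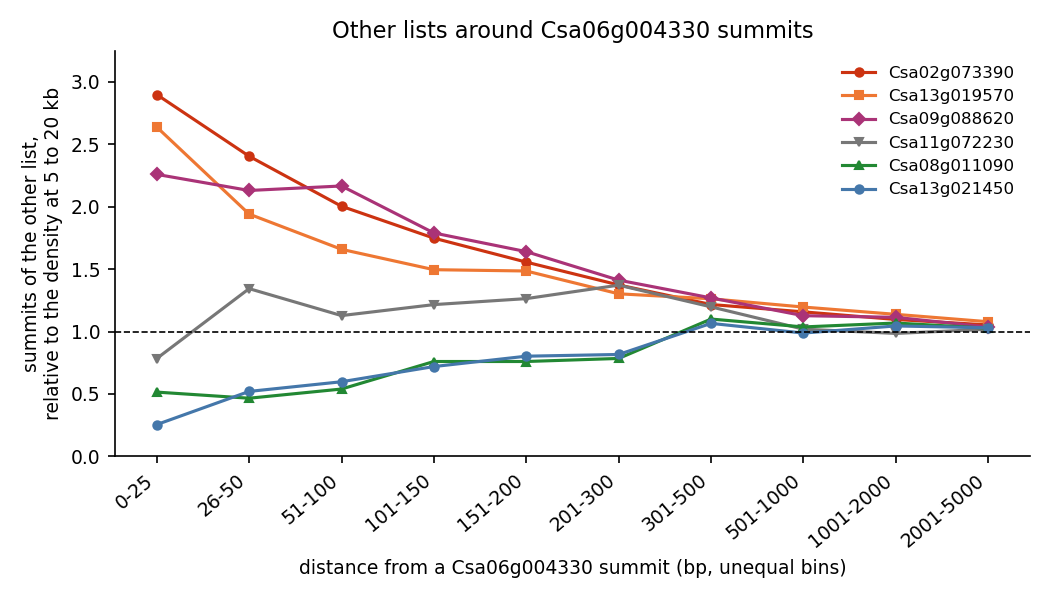
Density of another list's summits around Csa06g004330 summits (vertical axis, relative to the density at 5 to 20 kb; dashed line at 1) by distance (horizontal axis, bins of unequal width in bp), for 6 lists. Csa02g073390 is at 2.90 within 25 bp and Csa13g021450 at 0.255, and all 6 lie near 1 beyond 1000 bp.

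The short lists had the highest folds. Csa11g015700 had 69 of its 211 summits (32.7%, interval 26.4 to 39.5) within 100 bp of a Csa06g004330 summit, against 3.32% after moving, and Csa06g004330 held a larger share of it than any other long list did. Seen from Csa06g004330, 79 summits were shared, a fold of 10.9, at a median distance of 10 bp. At Csa11g015700 sites Csa06g004330 (9.86-fold) ranked 5 by fold among the 12 long lists, and Csa06g051300 (12.2-fold) was above it. Csa11g072230 also ranked above it, but its moved mean was 0.469 summits, under the 1 that a fold needs here. Csa10g008930 shared 278 Csa06g004330 summits (4.70-fold), Csa04g050690 44 (4.12-fold), Csa18g003140 172 (4.03-fold), Csa02g060070 130 (3.15-fold) and Csa05g079950 50 (2.38-fold). Among peaks at or above the median signal of each list, Csa05g079950 shared 8 (1.48-fold), within the moves, while the fold was 25.3 for Csa11g015700, 9.30 for Csa10g008930, 6.18 for Csa18g003140 and 4.98 for Csa02g060070. These 5 had other long lists with higher folds too, so high folds at their sites were not found with Csa06g004330 alone. Of the lists under 50 peaks, Csa11g037200 had 6 of 45 summits shared and Csa19g005080 1 of 13, and neither was called.

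The short lists differed in how far their sharing went with the strength of the Csa06g004330 peak. The strongest decile of Csa06g004330 peaks held 57.0% of the summits shared with Csa11g015700, 47.1% of those with Csa10g008930 and 37.2% of those with Csa18g003140. For Csa04g050690 it held 25% (11 of 44), for Csa02g060070 20% (26 of 130) and for Csa05g079950 18% (9 of 50). For Csa10g008930 the fold was 18.4 in the strongest decile (131 shared) and 2.27 in the weakest (12 shared). The median Csa06g004330 signal at shared sites was 177 for Csa11g015700, 154 for Csa10g008930 and 121 for Csa18g003140, against 53 to 53.1 at the other sites. With Csa05g079950 it was 49.25, against 53.2 at the other sites, and its fold was 3.39 in the strongest decile and 2.74 in the weakest. Among the long lists, Csa02g073390 was at 3.20-fold in the strongest decile and 2.10-fold in the weakest, and Csa13g021450 at 0.373-fold and 0.615-fold. The signals of the 2 lists at a shared site were at most weakly related for the lists described above, from a Spearman's rho of 0.28 with Csa10g008930 (278 sites) to -0.24 with Csa05g079950 (50 sites).

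**Figure D5:**
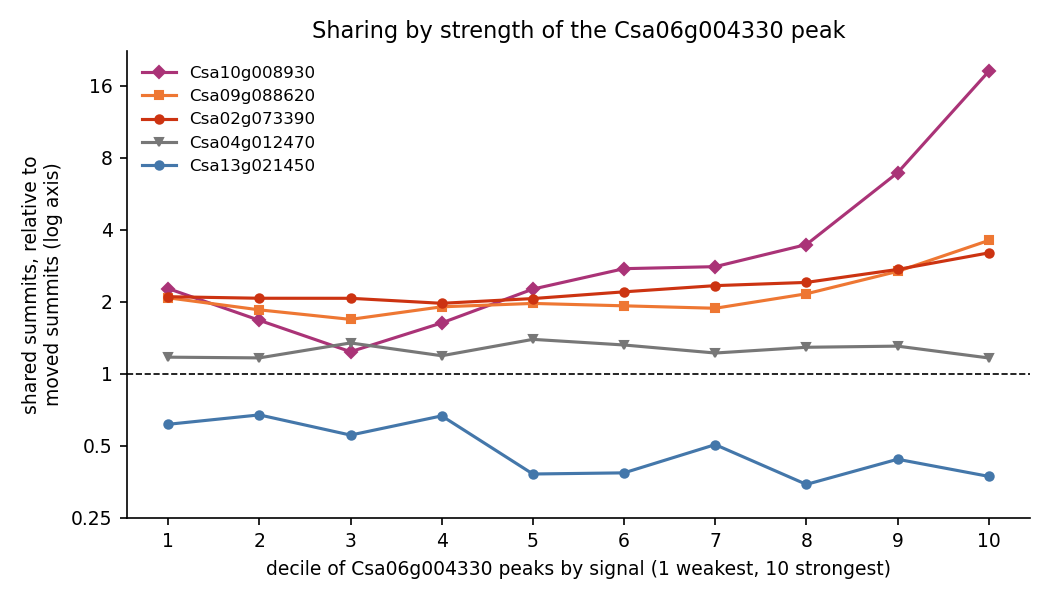
Shared over moved Csa06g004330 summits (vertical log axis; dashed line at 1) by decile of Csa06g004330 signal (horizontal axis), for 5 lists. Csa10g008930 reaches 18.4 in the strongest decile and Csa13g021450 stays below 1 in every decile.

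The transcript of Csa06g004330 itself was scarce in young seeds and higher at later ages. Its counts were 6, 38 and 20 at 5 DPA, 58, 86 and 91 at 8 DPA, and 145, 115 and 119 at 11 DPA. As CPM, which sets each count against the total of its library, these were 0.383, 0.968 and 0.453 at 5 DPA, 1.50, 1.95 and 2.38 at 8 DPA, and 3.09, 2.51 and 2.87 at 11 DPA. The highest value at 8 DPA, 2.38 CPM, was close to the lowest at 11 DPA, 2.51 CPM. The library with the lowest value, the first at 5 DPA, had 15659011 counts in all, against 38268473 to 46863553 in the other 8. Means were 0.601 CPM ± 0.319, 1.94 CPM ± 0.441 and 2.82 CPM ± 0.297 at 5, 8 and 11 DPA (SD, n = 3 each).

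By edgeR's quasi-likelihood test over 63017 genes, the transcript was higher at 8 than at 5 DPA by 1.58 on the log2 scale (SE 0.33, adjusted p = 0.00526) and higher at 11 than at 5 DPA by 2.195 (SE 0.33, adjusted p = 0.000337). Of all genes tested, 18.1% were called higher at 8 than at 5 DPA and 29.8% higher at 11 than at 5 DPA. The difference between 11 and 8 DPA, 0.62 on the log2 scale (SE 0.29), did not pass in edgeR's test (adjusted p = 0.123), while 20.8% of genes were called higher in that step. The comparisons of 8 and of 11 with 5 DPA share the 5 DPA libraries. With the first sequencing run alone the log2 difference of 8 and 5 DPA was 2.202. The 11 and 8 DPA difference passed in edgeR's test without 5 DPA replicate 2 (log2 0.62, adjusted p = 0.0393) and with only these ages in the fit (log2 0.61, adjusted p = 0.0494). Fewer cells that make the transcript and less RNA per cell cannot be told apart in whole seeds. The binding list comes from leaf DNA, so it holds no measure of where the factor binds in these seeds.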

How the data were processed

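Peak lists were deposited in narrowPeak layout and are named by the authors as events of the GEM peak caller. The authors give per peak a score, a signal whose unit is not stated, and p and q as −log10. Pooling of duplicates, the genome build and the annotation were not given in the sources used here. Tools named in the submitters' processing notes, without roles, are HISAT2 2.0.4, Bowtie2 2.3.4.1, Trimmomatic, FastQC and bcl2fastq 2.20.0. A list of the Halo control was not used here. The gene count table holds the authors' raw counts, as deposited, for each sequencing run; the treatment of strand and of multiply mapped reads was not given in the sources used here, so counts of near-identical gene copies are uncertain.

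Summits were read from the authors' positions (Python 3.11.15, NumPy 2.4.6, pandas 2.3.3, SciPy 1.17.1, figures with Matplotlib 3.10.9). A summit counted as shared if the other list had one within 100 bp, and counts were set beside 32 fixed moves of 5 to 20 kb in 1-kb steps, in both directions, which describe the region and are no test. Folds need a mean of at least 1 shared summit over the moves. Pair densities were set beside those at 5 to 20 kb. Runs of a replicate were summed, except that the second runs of 5 DPA replicates 1 and 2 were identical and were counted once, with replicate 2, whose first run they matched (chi-square per degree of freedom 1.34, against 9.39 for replicate 1). All ages were fitted at once with edgeR 4.0.16 (R 4.3.3; TMM, filterByExpr, glmQLFTest, Benjamini-Hochberg, adjusted p under 0.05). Library totals of 15659011 and of 38268473 to 46863553 mean that 3 counts, the floor, correspond to 0.192 CPM and 0.0640 to 0.0784 CPM.

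Peaks named in the text are the 5 with the highest and 3 with the lowest signal and the 5 with most other lists. Regions are the 3 runs with most summits and the 3 longest gaps, chromosomes the 2 densest and 2 sparsest, and long lists the 4 with the highest and 4 with the lowest folds. The list, the comparisons and this rule were chosen with earlier results of these data known. Alternatives were 50 and 200 bp, peaks at or above the median signal, moves of 1 to 4 kb and of 50 to 200 kb, neighbours within 250 and 1000 bp, DESeq2 1.42.0, its size factors, only the ages compared, no filter on low counts, the first run alone, the replicate number as a block and each replicate left out. Leaving out the densest windows was added after seeing the data.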

Additional observations from a re-analysis of the deposited data

How the results depend on the processing

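Among 17 lists, 14 shared more and 2 fewer at 50 bp, with moves of 1 to 4 kb or 50 to 200 kb, at or above the median signal, and without the 5 densest windows; at 200 bp 15 shared more and 2 fewer. At or above the median signal the 14 were not the same lists: Csa05g079950 was within the moves and Csa11g072230 above them. Of 102 alternative folds 64 stayed within the counting interval, 38 moved and 0 crossed 1. The share without another list was 83.3% at 50 bp and 54.8% at 200 bp. It was 81.9% with every list cut to peaks at or above its own median signal, which also removed summits of the other lists. Against the full lists, 27.6% to 35.6% of summits in signal deciles 6 to 10 had another list within 100 bp. In the weakest decile 27.2% did. The share with an own neighbour was 14.8% within 250 bp and 37.9% within 1000 bp. It was 19.3% within 500 bp when only peaks at or above the median signal were kept, so that weaker neighbours did not count. In the full list, 24.2% to 37.2% of summits in signal deciles 6 to 10 had an own neighbour within 500 bp. One list per factor and an unknown read depth limit every comparison of lists.

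Over 15 alternatives the edgeR or DESeq2 test was passed in 15 for 8 against 5 DPA (log2 1.35 to 2.202, adjusted p 0.000108 to 0.0230) and in 15 for 11 against 5 DPA (1.97 to 2.74, adjusted p 6.56e-09 to 0.00208). Leaving out 1 replicate gave log2 values of 1.35 to 2.12, 0.461 to 0.782 and 1.97 to 2.74 for 8 against 5, 11 against 8 and 11 against 5 DPA. The 11 against 8 DPA difference passed in 2 of 15 (adjusted p 0.0393 to 0.333), at 0.617 without 5 DPA replicate 2 and at 0.607 with only the ages compared; the cause was not tested. Replicate numbers share no stated source, and deviations of same-numbered libraries correlated at -0.0948 to 0.187, with the same number the best match in 4 of 18. With the replicate number as a block the log2 differences were 1.61, 0.64 and 2.25 for 8 against 5, 11 against 8 and 11 against 5 DPA (edgeR adjusted p 0.0124, 0.146 and 0.00127), and 20861, 23941 and 35856 genes were called, against 22436, 25525 and 37159 without it.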
